A study of Saccharomyces cerevisiae with 15 samples.

Results

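The genes considered here were 10 of the 6600 genes counted in budding yeast: the genes of de novo pyrimidine synthesis URA2 (YJL130C), URA4 (YLR420W), URA1 (YKL216W), URA5 (YML106W), URA10 (YMR271C) and URA3 (YEL021W), the genes URA6 (YKL024C) and URA7 (YBL039C) for the steps that follow, FUR4 (YBR021W) for uracil uptake and PPR1 (YLR014C) for a regulator of the pathway. They were picked by name and systematic identifier as a pathway, with no threshold on a measured value but with earlier results of these data known, and all 10 passed the filter on low counts, as did 5851 genes in all. mRNA was sequenced from 15 libraries of 5 strains, each with 3 libraries that the labels call biological replicates, and the gene counts summed to between 7365923 and 12164321 per library, with a median of 9449052.

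All 5 strains were transformants of 1 haploid mutant line, MJ15-9C, which carries the suppressor tRNA allele SUP11, the ura3-1 allele, mutations in ADE2, LYS2, LEU2 and HIS3, and rpc128-1007, an allele of the gene for the second largest subunit of RNA polymerase III (Pol III, the enzyme that makes tRNAs) that impairs assembly of the enzyme. They differed by plasmid. rpc128-1007[PRT1], called [PRT1] below, carried a multicopy plasmid with PRT1, a gene for a subunit of translation initiation factor eIF3, whose insert also held the 3′ part of PRE10. rpc128-1007[RBS1], called [RBS1], carried the RNA-binding protein gene RBS1 on the multicopy plasmid YEp181, and rpc128-1007[RBS1-R3H], called [RBS1-R3H], carried on the same plasmid an RBS1 allele with conserved residues of its R3H domain changed to alanine. rpc128-1007[-], called rpc128-1007, carried an empty vector, and the control, called wt, carried the native RPC128 gene on the centromeric plasmid pRS316, so wt also had the mutation on its chromosome. RNA came from log phase cells in rich medium (YPD), which does not select for the plasmid markers, after a first overnight culture without uracil or leucine.

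Pyrimidine nucleotides are built in yeast from glutamine, bicarbonate and aspartate. Ura2 makes carbamoyl phosphate and joins it to aspartate, Ura4 closes the ring, Ura1 oxidises it to orotate, Ura5 and its paralog Ura10 attach a phosphoribosyl group, and Ura3 removes a carboxyl group to give UMP. Ura2 is inhibited by UTP, and the activator Ppr1 turns on several URA genes when the intermediates dihydroorotate and orotate accumulate. URA3 is also a common plasmid marker, which matters for its counts here.

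Sites of the kind bound by Ppr1 (CGG and CCG, 6 bases apart) and by Gcn4, the activator of amino acid genes, were searched for on both strands in the 500 bases before the start codon, and the stretches found are printed because they show which members share such letters and which do not. Sequences are from the RefSeq annotation of the R64 assembly, on the strand of the gene, and capitals mark the letters of the motif.
URA1, full Ppr1 motif: cacgatcTTCGGcattcgCCGAAaattttt
URA1, second Ppr1 core: tttcttcacCGGgctttgCCGaaggttatt
URA4, Ppr1 core: ttcatcattCGGagaattCCGatgaatcgg
URA3, Ppr1 core: tttttgattCGGtaatctCCGagcagaagg
URA10, Gcn4 motif: tgctctacaccTGACTCAcatgacagcat

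The full motif, TTCGGNNNNNNCCGAA, began 183 bases before the URA1 start codon and stood in 2 of 6019 promoters (0.0332%). Its core, CGGNNNNNNCCG, which every full motif contains, was found in 2.69% of promoters; beside the full motif it began 212 bases before URA1, 130 bases before URA4 and 152 bases before URA3. The Gcn4 motif TGACTCA stood 229 bases before URA10 and in 3.99% of all promoters. URA2, URA5, URA6, URA7, FUR4 and PPR1 held none of the 3 motifs in this window, which says only that these letters were absent there.

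Levels are given as CPM, the count per 1000000 counts of a library after scaling of the library total by edgeR's TMM method, which assumes that most genes do not change. Changes are log2 fold changes from edgeR's quasi-likelihood test, and their p-values were adjusted by Benjamini and Hochberg's method over 5851 genes. The test gives no standard errors. They were derived as the absolute change divided by the square root of the test's F statistic, and the confidence intervals were built from them. A gene is called higher or lower where the adjusted p was under 0.05. Within 3 of the strains the libraries differed by gene length. Spearman's rho of a library's deviation from its strain mean with coding length, a description over 5699 genes, was 0.42, 0.04 and -0.46 in [PRT1] replicates 1 to 3, -0.27, 0.50 and -0.46 in those of [RBS1] and -0.33, 0.56 and -0.38 in those of rpc128-1007, where a positive value means that long genes were high, and it lay between -0.17 and 0.14 in [RBS1-R3H] and wt. With the trend removed from all libraries 2 of the 80 member changes gained a call and 0 lost one, and with only rpc128-1007 replicate 2 and [RBS1] replicate 2 left out 1 gained a call and 0 lost one. RET1, the standard name of RPC128, had strain means of 199 to 255 CPM in the other 4 strains against 448 ± 21.6 CPM in wt, PRT1 had 4818 ± 324 CPM in [PRT1] against 632 ± 79.4 CPM in rpc128-1007, and RBS1 had 4410 ± 180 CPM in [RBS1] and 2986 ± 833 CPM in [RBS1-R3H] against 100.3 ± 31.2 CPM in rpc128-1007 (SD, n = 3 each).

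In the mutant with an empty vector, 6 of the 10 genes were higher than in wt and 0 were lower, against 12.8% of all tested genes called higher and 5.73% called lower. The 6 were URA10, URA3, FUR4, URA6, URA1 and URA2, and the median log2 fold change of the 10 was 0.50, against 0.01 over all tested genes. In [PRT1], 6 genes were lower than in rpc128-1007, URA10, URA3, URA6, FUR4, URA1 and URA2, and 0 were higher, where 13.7% and 7.81% of tested genes were, with a median of -0.48 over the 10 and 0.02 over all tested genes. Against wt, 1 of the 10 genes was higher in [PRT1], URA3, and 0 were lower (6.84% and 4.75% of tested genes). In [RBS1] 4 genes, URA10, URA3, URA2 and URA6, were lower than in rpc128-1007 and 0 were higher (17% and 12.5% of tested genes), while against wt 2 were higher, URA10 and FUR4, and 1 was lower, URA3 (6.53% and 4.34% of tested genes). URA3 is among the called genes in each of these comparisons and enters the medians of the 10. Its counts may include reads of a plasmid marker, as described below.

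In [RBS1-R3H], 3 genes were higher than in wt, URA10, FUR4 and URA2, and 1 was lower, URA3, where 13.3% and 9.43% of tested genes were. Against rpc128-1007 that strain had 1 gene higher, URA10, and 2 lower, URA3 and URA6 (4.49% and 6.72% of tested genes). Both comparisons count URA3, with the limit given above. Between the active and the inactive RBS1 allele, 3 genes were lower with the active one, URA10, URA2 and FUR4, and 0 were higher (14.4% and 13.3% of tested genes). URA4, URA5, URA7 and PPR1 were called in none of the 8 comparisons in the fit as reported. With library totals in place of TMM, the shares of tested genes called higher and lower became 10.2% and 10.2% in rpc128-1007 against wt, 9.93% and 19.2% in [RBS1-R3H] against wt, 19.3% and 12.2% in [RBS1] against rpc128-1007, and 24.9% and 9.72% in [RBS1] against [RBS1-R3H]. The comparisons share strains, so their calls are not independent of each other. In all but the comparison of both RBS1 alleles, plasmid marker and overnight medium may differ along with the strain, for every gene.

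**Figure D1:**
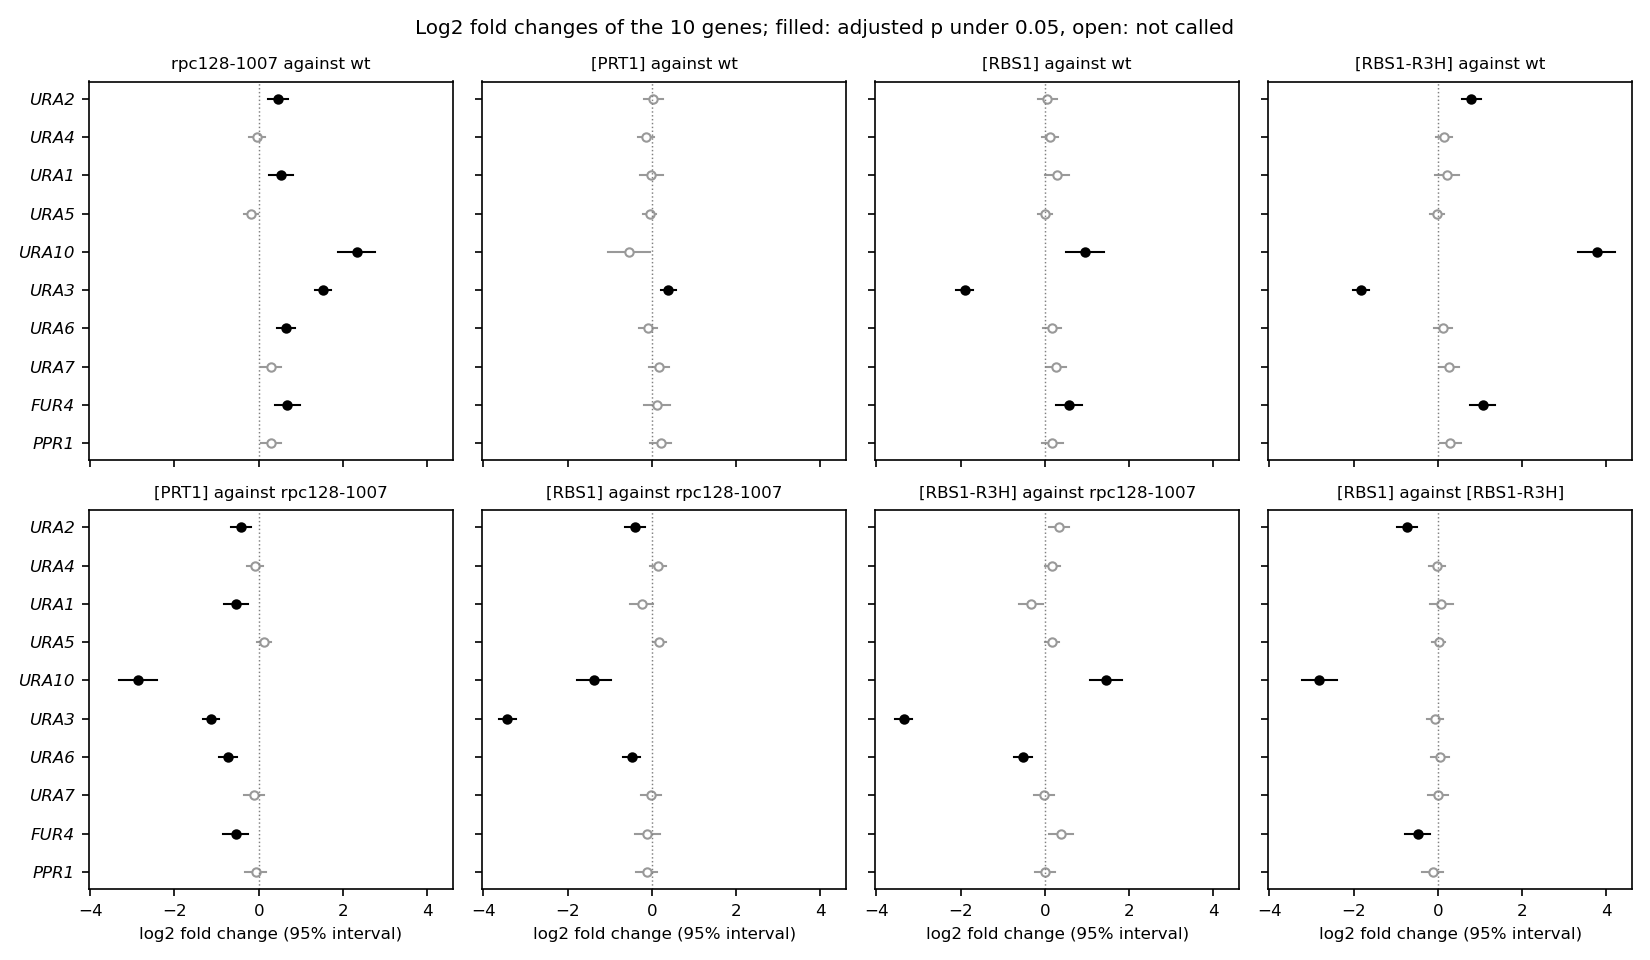
Log2 fold changes (x axis) of the 10 genes (rows) in the 8 comparisons (panels), with 95% confidence intervals. Filled points had an adjusted p under 0.05. URA10 and URA3 lie farthest from 0 and the points of URA4, URA5, URA7 and PPR1 are all open.

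URA2 encodes the large enzyme that carries out the opening steps of the pathway, and its level was highest in the strain with the inactive RBS1 allele. It had 428.9, 424.5 and 402.8 CPM in [PRT1], 402.4, 473.7 and 398.2 CPM in [RBS1], 630.8, 802.8 and 687.5 CPM in [RBS1-R3H], 510.1, 659.0 and 518.1 CPM in rpc128-1007, and 400.3, 411.0 and 412.0 CPM in wt. All libraries of [RBS1-R3H] and of rpc128-1007 were above all those of the other 3 strains, while those 2 strains overlapped each other. URA2, with 6645 bases of coding sequence the longest member, was highest within its strain in the 3 libraries whose rho with coding length was over 0.4, [PRT1] replicate 1, [RBS1] replicate 2 and rpc128-1007 replicate 2, and lowest in replicate 3 of [PRT1] and [RBS1] and in replicate 1 of rpc128-1007, whose rho was negative.

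URA2 in rpc128-1007 exceeded wt by 0.46 ± 0.11 (log2 fold change ± SE, adjusted p = 0.00752) and in [RBS1-R3H] by 0.79 ± 0.11 (adjusted p = 7.55e-05). Relative to rpc128-1007 it differed by -0.43 ± 0.11 in [PRT1] (adjusted p = 0.00991), which became -0.30 (adjusted p = 0.0524) without rpc128-1007 replicate 2, and by -0.41 ± 0.11 in [RBS1] (adjusted p = 0.0116). The call in [RBS1] was lost without rpc128-1007 replicate 2 (-0.28, adjusted p = 0.0595) and without [RBS1] replicate 1 (-0.37, adjusted p = 0.0514), and the value was -0.26 with the length trend removed (adjusted p = 0.0272). With the active allele URA2 was lower than with the inactive one (-0.74 ± 0.11, adjusted p = 0.000149). The change in [RBS1-R3H] relative to rpc128-1007, 0.33 ± 0.11, missed the threshold (adjusted p = 0.0654). It passed with DESeq2 (0.35, adjusted p = 0.0222), with no filter on low counts (0.36, adjusted p = 0.0467) and with the length trend removed (0.36, adjusted p = 0.00873). It also passed without rpc128-1007 replicate 2 (0.46, adjusted p = 0.00955), without that library and [RBS1] replicate 2 (0.46, adjusted p = 0.00424) and without [RBS1-R3H] replicate 1 (0.44, adjusted p = 0.0397).

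URA4, the dihydroorotase gene, kept to a narrow range. Its libraries lay between 91.5 and 128.5 CPM, with means of 97.7 ± 8.11 CPM in [PRT1], 116 ± 12.1 in [RBS1], 118 ± 6.05 in [RBS1-R3H], 104.1 ± 7.35 in rpc128-1007 and 107.1 ± 1.71 in wt (SD, n = 3 each). The means differed by little more than the spread within strains. Its change in rpc128-1007 relative to wt was -0.04, with a 95% confidence interval of -0.23 to 0.15, and it was called only with library totals in place of TMM, as higher in [RBS1] than in rpc128-1007 (0.25, adjusted p = 0.0345).

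URA1, the dihydroorotate dehydrogenase gene with the full Ppr1 motif, had 230.1, 238.8 and 213.9 CPM in [PRT1], 297.9, 275.1 and 266.9 CPM in [RBS1], 253.5, 286.8 and 253.4 CPM in [RBS1-R3H], 419.7, 286.2 and 287.4 CPM in rpc128-1007, and 237.0, 251.4 and 198.6 CPM in wt. Replicate 1 of rpc128-1007 stood well above every other library. The libraries of rpc128-1007 did not overlap those of wt or [PRT1]. In rpc128-1007 URA1 exceeded wt by 0.53 ± 0.13 (adjusted p = 0.0104), or by 0.33 without rpc128-1007 replicate 1 (adjusted p = 0.0418), and the call was lost without wt replicate 3 (0.44, adjusted p = 0.0608). It was lower in [PRT1] than in rpc128-1007 (-0.54 ± 0.13, adjusted p = 0.00737), with a change of -0.33 without that replicate 1 (adjusted p = 0.0321).

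URA5 and URA10 encode the paralogous orotate phosphoribosyltransferases, of which Ura5 is known as the main form. Their coding sequences, of 681 and 684 bases, were identical at 473 of 672 aligned bases (70.4%), and the longest run they share is 11 bases, ctaagatttgg, far shorter than a read. URA5 lay between 383.0 and 474.3 CPM in every library, with means of 436.9 ± 25.8 CPM in [PRT1], 452.5 ± 22.8 in [RBS1], 447.2 ± 23.5 in [RBS1-R3H], 399 ± 27.6 in rpc128-1007 and 452.7 ± 14.2 in wt (SD, n = 3 each). The empty vector strain was lowest, and its libraries overlapped those of [PRT1] and [RBS1] but not those of [RBS1-R3H] or wt. Its change in rpc128-1007 relative to wt was -0.18 (95% confidence interval -0.34 to -0.02, adjusted p = 0.114), and it was called lower with DESeq2 (-0.20, adjusted p = 0.0487) and with library totals in place of TMM (-0.26, adjusted p = 0.0176). In [RBS1] relative to rpc128-1007 URA5 was not called as reported (0.18), and was called higher with DESeq2 (0.20, adjusted p = 0.0325), with library totals (0.28, adjusted p = 0.00833) and without rpc128-1007 replicate 1 (0.24, adjusted p = 0.0377).

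URA10 varied most of the 10 genes. It had 6.47, 8.79 and 5.94 CPM in [PRT1], 18.9, 17.2 and 24.4 CPM in [RBS1], 121.1, 178.4 and 126.4 CPM in [RBS1-R3H], 54.9, 58.9 and 42.4 CPM in rpc128-1007, and 8.91, 12.3 and 9.99 CPM in wt. The 5 strains did not overlap in any library, in the order [RBS1-R3H], rpc128-1007, [RBS1], wt and [PRT1]. Only the lowest pair of neighbours in that order, [PRT1] against wt, was not called (-0.54 ± 0.23, adjusted p = 0.157). The counts behind these values were low at 44 to 88 in [PRT1] and 81 to 105 in wt, against 1097 to 1546 in [RBS1-R3H].

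Compared with wt, URA10 was 5.01-fold higher in rpc128-1007 (log2 fold change 2.33 ± 0.20, adjusted p = 3.62e-06) and 13.7-fold higher in [RBS1-R3H] (3.77 ± 0.21, adjusted p = 1.95e-08). In [RBS1] it was higher than in wt by 0.96 ± 0.21 (adjusted p = 0.0118), a call lost without wt replicate 1 (0.85, adjusted p = 0.051). Relative to rpc128-1007 it was lower, with changes of -2.87 ± 0.21 in [PRT1] (adjusted p = 1.07e-06) and -1.37 ± 0.19 in [RBS1] (adjusted p = 0.000124). In [RBS1-R3H] it was higher than in rpc128-1007 by 1.45 ± 0.18 (adjusted p = 0.000348). With the active RBS1 allele it was lower than with the inactive one (-2.82 ± 0.19, adjusted p = 1.03e-07).

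Between its highest and lowest strain means URA10 spanned 4.32 on the log2 scale. The span was smaller in 99.86% of tested genes, and the median over all tested genes was 0.43. With counts divided by coding length, URA10 made up 1.59 ± 0.32% of the summed URA5 and URA10 level in [PRT1], 4.23 ± 0.70% in [RBS1], 23.8 ± 2.98% in [RBS1-R3H], 11.5 ± 1.69% in rpc128-1007 and 2.24 ± 0.39% in wt (SD, n = 3 each). In every library URA5 thus gave most of the mRNA for this step. URA10 lies 697 bases from the nearest annotated tRNA gene and URA4 729 bases, the others at least 4242 bases, where 7.13% of protein-coding genes lie within 1000 bases of one.

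**Figure D2:**
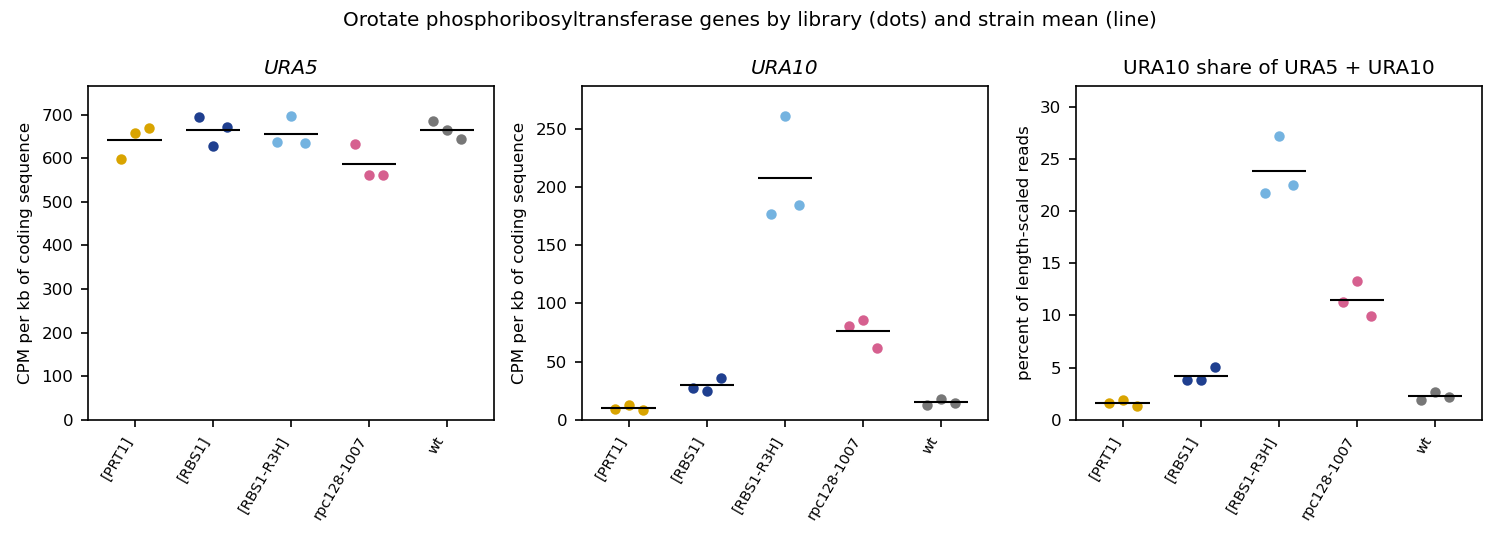
Share of URA10 in the summed length-scaled counts of URA5 and URA10 (y axis, percent) in each library (dots) with the strain mean (line). The libraries of [RBS1-R3H] lie between 21.7% and 27.2%, those of rpc128-1007 between 9.92% and 13.3%, and those of wt between 1.86% and 2.63%.

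Of the tested genes, TMT1 (0.180), the methyltransferase gene for trans-aconitate, and ARO5 (0.191) had the 5 strain means closest to those of URA10, by root mean square distance on the centred log2 scale. TMT1 averaged 25.3 CPM in [PRT1], 62.5 in [RBS1], 465.7 in [RBS1-R3H], 229.2 in rpc128-1007 and 42.9 in wt, so its order of strains was that of URA10. The points are 5 means from the same libraries, and the distance is a description.

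URA3, the gene for orotidine-5′-phosphate decarboxylase, had the lowest log2 fold changes of the 10 genes. It had 957.7, 996.7 and 959.3 CPM in [PRT1], 187.6, 220.5 and 183.2 CPM in [RBS1], 186.2, 226.9 and 207.9 CPM in [RBS1-R3H], 2295, 2028 and 2036 CPM in rpc128-1007, and 746.2, 745.9 and 722.0 CPM in wt. The strains fell into 4 levels that did not overlap, with both RBS1 strains sharing the lowest and rpc128-1007 at the highest.

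In rpc128-1007 URA3 exceeded wt by 1.52 ± 0.09 (2.87-fold, adjusted p = 2.07e-07) and in [PRT1] by 0.40 ± 0.09 (adjusted p = 0.00726). Relative to wt it was -1.91 ± 0.09 in [RBS1] (adjusted p = 1.08e-08) and -1.83 ± 0.09 in [RBS1-R3H] (adjusted p = 9.07e-09). Relative to rpc128-1007 it was -1.13 ± 0.09 in [PRT1] (adjusted p = 1.07e-06), -3.43 ± 0.10 in [RBS1] (adjusted p = 4.9e-12) and -3.36 ± 0.10 in [RBS1-R3H] (adjusted p = 6.37e-12). Between both RBS1 strains, which share the plasmid YEp181, the difference was -0.07 with a 95% confidence interval of -0.26 to 0.12 (adjusted p = 0.596).

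The count of URA3 joins reads of the chromosomal ura3-1 allele with reads of any plasmid copy. pRS316, in wt, carries URA3 as its marker and YEp181 carries LEU2. PRT1 was used on a URA3 or a LEU2 multicopy plasmid, and neither the one sequenced nor the marker of the empty vector is given in the sources used here. In every comparison other than that of both RBS1 alleles, plasmid, marker, medium of the overnight culture and strain therefore cannot be told apart. This holds for URA3 and for every other gene reported here. In RNA from a whole culture, fewer cells with a plasmid and less RNA per cell cannot be told apart either.

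GEA2, which lies next to URA3 on the chromosome, had strain means of 94.2 to 109.7 CPM and was called in none of the 8 comparisons. TIM9, on the other side of URA3, had only 6 to 42 counts a library. LEU2 averaged 456 ± 81.6 CPM in [PRT1], 2395 ± 577 in [RBS1], 3760 ± 579 in [RBS1-R3H], 790.1 ± 106 in rpc128-1007 and 370.2 ± 52.0 in wt (SD, n = 3 each). It was thus highest in the strains with the lowest URA3, and it moved in the same direction as URA3 in rpc128-1007 relative to wt (1.09 ± 0.19, adjusted p = 0.000956) and in [PRT1] relative to rpc128-1007 (-0.79 ± 0.18, adjusted p = 0.00601). LEU2 was lower in [RBS1] than in [RBS1-R3H], though both carry YEp181 (-0.65 ± 0.18, adjusted p = 0.0168). LEU2 counts also join reads of the chromosomal allele with reads of any plasmid copy. The part of the plasmids in the URA3 and LEU2 values was not tested.

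**Figure D3:**
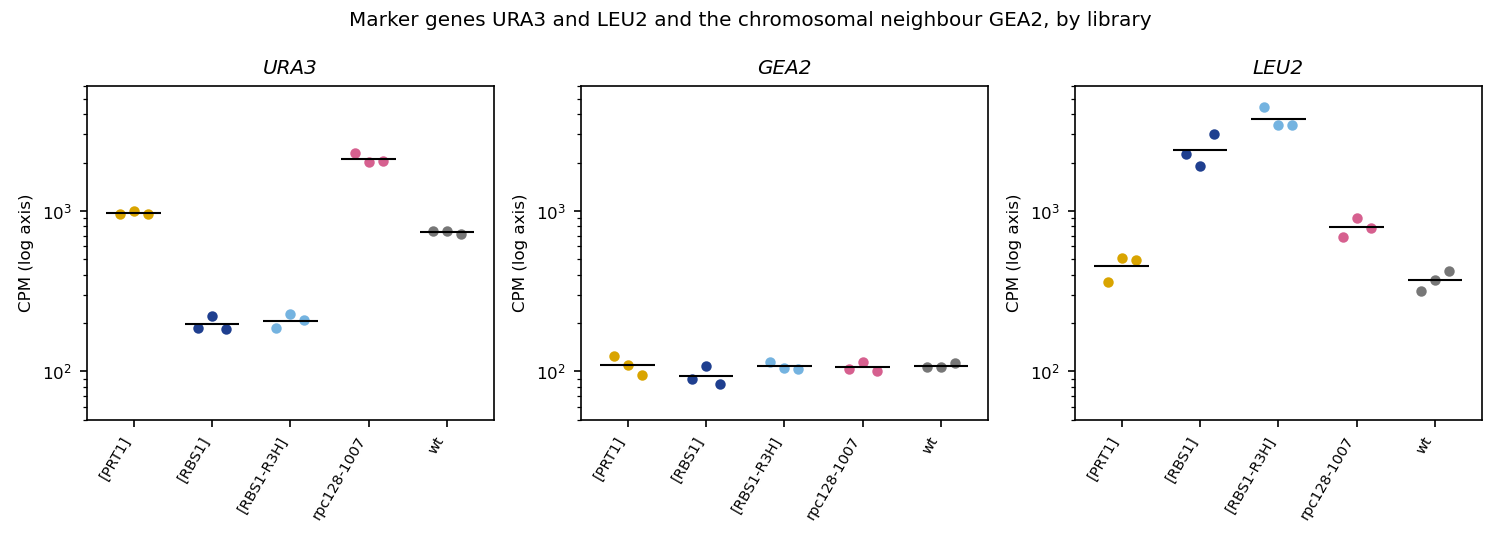
Levels (y axis, CPM, log axis) of URA3, its chromosomal neighbour GEA2 and the marker gene LEU2 in each library (dots) with the strain mean (line). URA3 is lowest and LEU2 highest in both RBS1 strains, while GEA2 stays between strain means of 94.2 and 109.7 CPM.

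The genes nearest to URA3 by the same distance were CWP1 (0.647), a cell wall protein gene, HSP26 (0.665), a small heat shock protein gene, and DDR2 (0.673), a stress response gene. These distances were larger than those of the genes nearest to URA10, and none of these genes had the order of strain means that URA3 had.

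URA6 encodes the kinase that turns UMP into UDP. It had 91.5, 86.3 and 82.9 CPM in [PRT1], 105.1, 108.9 and 97.9 CPM in [RBS1], 93.4, 105.1 and 103.9 CPM in [RBS1-R3H], 158.0, 135.0 and 142.1 CPM in rpc128-1007, and 90.4, 107.0 and 79.9 CPM in wt. The rpc128-1007 libraries were above all others, and the other 4 strains lay between 79.9 and 108.9 CPM.

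In rpc128-1007 URA6 exceeded wt by 0.65 ± 0.10 (adjusted p = 0.00033). It was lower than in rpc128-1007 in the other 3 strains, with changes of -0.74 ± 0.10 in [PRT1] (adjusted p = 6.27e-05), -0.48 ± 0.10 in [RBS1] (adjusted p = 0.00229) and -0.52 ± 0.10 in [RBS1-R3H] (adjusted p = 0.00328). With the active RBS1 allele it differed from the inactive one by 0.04 (95% confidence interval -0.17 to 0.26, adjusted p = 0.782). URA6 was thus lower in both RBS1 strains than with the empty vector. So was URA3, whose counts cannot be told apart from plasmid and marker. URA2 and URA10 were called lower than with the empty vector in [RBS1] but not in [RBS1-R3H]. URA2, URA10 and FUR4 were lower with the active allele than with the inactive one.

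URA7 encodes the main CTP synthase. It lay between 309.8 and 494.8 CPM, with means of 419.3 ± 35.2 CPM in [PRT1], 451.4 ± 40.2 in [RBS1], 447.6 ± 8.09 in [RBS1-R3H], 455.9 ± 48.5 in rpc128-1007 and 373.4 ± 55.3 in wt (SD, n = 3 each). The wt mean was the lowest, and the wt libraries overlapped those of rpc128-1007 and [PRT1] but not those of either RBS1 strain. Its change in rpc128-1007 relative to wt was 0.29 ± 0.11 (adjusted p = 0.0905). With the replicate number as a block over all 15 libraries, that change was 0.29 with an adjusted p of 0.0107. Without rpc128-1007 replicate 3 it was 0.37 (adjusted p = 0.0393). URA7 and its paralog URA8 share 72.5% of aligned coding bases and at most 17 bases in a row.

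FUR4, the plasma membrane uracil permease gene, had 40.7, 36.5 and 37.4 CPM in [PRT1], 55.2, 53.2 and 47.5 CPM in [RBS1], 77.4, 76.9 and 64.1 CPM in [RBS1-R3H], 62.7, 59.9 and 45.3 CPM in rpc128-1007, and 42.3, 29.7 and 32.4 CPM in wt. The libraries of [RBS1-R3H] were all higher than those of the other strains, and those of rpc128-1007 and [RBS1] overlapped each other but not wt or [PRT1].

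FUR4 was higher than in wt by 0.68 ± 0.14 in rpc128-1007 (adjusted p = 0.00317), by 0.58 ± 0.14 in [RBS1] (adjusted p = 0.0198) and by 1.06 ± 0.14 in [RBS1-R3H] (adjusted p = 5.12e-05). The call in [RBS1] was lost without replicate 1 (0.53, adjusted p = 0.0718) or 2 (0.56, adjusted p = 0.0534) of that strain and without replicate 2 (0.47, adjusted p = 0.1) or 3 (0.53, adjusted p = 0.0778) of wt. In [PRT1] FUR4 was lower than in rpc128-1007 (-0.55 ± 0.14, adjusted p = 0.00937), a call lost without [PRT1] replicate 2 (-0.50, adjusted p = 0.0524). Relative to rpc128-1007, FUR4 in [RBS1-R3H] differed by 0.38 ± 0.14 (adjusted p = 0.0933), a call gained without [RBS1-R3H] replicate 3 (0.50, adjusted p = 0.0419) and with the length trend removed (0.42, adjusted p = 0.04). With the active RBS1 allele it was lower than with the inactive one (-0.48 ± 0.14, adjusted p = 0.0162), a call lost without [RBS1] replicate 3 (-0.42, adjusted p = 0.0647), [RBS1-R3H] replicate 1 (-0.46, adjusted p = 0.0531) or replicate 2 (-0.46, adjusted p = 0.0518) and with library totals in place of TMM (-0.36, adjusted p = 0.0525).

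The tested gene closest to FUR4 over the strain means was FUI1, the uridine permease gene, at a distance of 0.0639, followed by PSP2 (0.0842) and AGX1 (0.0846). FUI1 averaged 94.5 CPM in [PRT1], 116.7 in [RBS1], 167.4 in [RBS1-R3H], 137.2 in rpc128-1007 and 87.4 in wt. FUR4, FUI1 and PSP2 had the same order of strain means, from [RBS1-R3H] at the top to wt. FUI1 and PSP2 were picked for their nearness to FUR4, so a like order follows in part from that choice.

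PPR1, whose protein binds the promoters of URA genes, lay between 46.3 and 70.5 CPM, with means of 60.2 ± 6.0 CPM in [PRT1], 58.5 ± 5.96 in [RBS1], 63.6 ± 6.66 in [RBS1-R3H], 63.4 ± 6.14 in rpc128-1007 and 51.9 ± 6.23 in wt (SD, n = 3 each). Its mean was lowest in wt. Its change in rpc128-1007 relative to wt was 0.29 ± 0.12 (adjusted p = 0.0992), or 0.29 with an adjusted p of 0.0292 when the replicate number was a block. In [RBS1-R3H] relative to wt it was 0.29 ± 0.12 (adjusted p = 0.0847), and 0.41 without wt replicate 2 (adjusted p = 0.0331). Of the 3 genes with a Ppr1 core motif, URA1 and URA3 were both called higher in rpc128-1007 than in wt and lower in [PRT1] than in rpc128-1007, where the URA3 counts cannot be told apart from plasmid and marker. URA1 was called in no other comparison, and URA4 in none of the fit as reported. URA10, URA2, URA6 and FUR4 were also called higher in rpc128-1007 than in wt and lower in [PRT1] than in rpc128-1007. Whether Ppr1 acted on any of these genes was not tested.

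**Figure D4:**
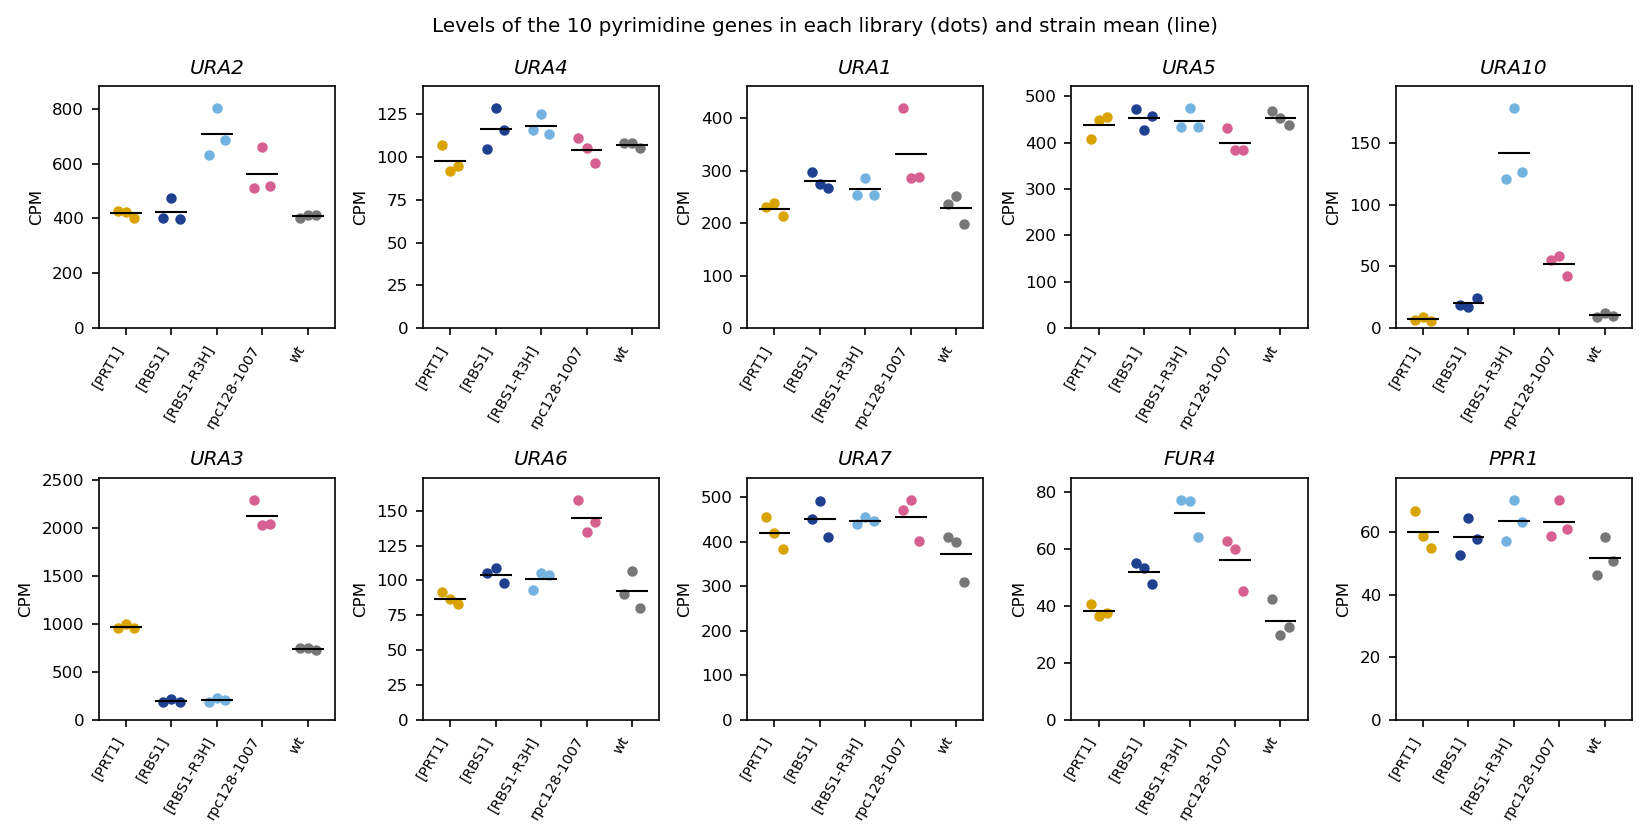
Levels (y axis, CPM, each panel on its own scale from 0) of the 10 genes in each library (dots) with the strain mean (line). URA10, URA2 and FUR4 are highest in [RBS1-R3H], and URA3, URA6 and URA1 are highest in rpc128-1007.

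Compared per kilobase of coding sequence, the members ranked in wt from URA3 (918 CPM per kilobase), URA5 (665), URA1 (242) and URA7 (215) through URA6 (150.3), URA4 (97.8) and URA2 (61.4) to PPR1 (19.1), FUR4 (18.3) and URA10 (15.2). The URA3 value joins chromosomal reads with any from the plasmid marker in wt.

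A wider list held 26 other genes of pyrimidine metabolism and of its precursors. Of these, 8 were higher (30.8%) and 2 lower (7.69%) in rpc128-1007 than in wt, where 12.8% and 5.73% of all tested genes were. The log2 fold changes of the 26 had a median of 0.19, against 0.01 over all tested genes. The highest were SDT1, a pyrimidine nucleotidase gene (1.64 ± 0.21, adjusted p = 0.000118), and CPA1, a gene of arginine synthesis (1.31 ± 0.10, adjusted p = 1.69e-06). The lower genes were FCY21, a permease family member (-0.41 ± 0.07, adjusted p = 0.00111), and URH1, the uridine nucleosidase gene (-0.27 ± 0.08, adjusted p = 0.0271), whose call was lost in 7 of 23 alternatives. CPA1 stands beside the pyrimidine pathway rather than in it. Of the 8 higher genes, 3 were in the class of precursor genes, which holds CPA1 and PRS1 to PRS5.

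In [PRT1], 4 of the 26 were higher (15.4%) and 6 lower (23.1%) than in rpc128-1007, where 7.81% and 13.7% of tested genes were, with a median of -0.0026 against 0.02 over all tested genes. FUR1, the uracil phosphoribosyltransferase gene (0.85 ± 0.10, adjusted p = 1.85e-05), and DCD1, the dCMP deaminase gene (0.83 ± 0.09, adjusted p = 1.14e-05), were the highest, and SDT1 (-1.56 ± 0.21, adjusted p = 9.64e-05) and CPA1 (-1.35 ± 0.10, adjusted p = 1.07e-06) the lowest. Against wt 4 were higher and 0 lower there (6.84% and 4.75% of tested genes, median 0.11), led by DCD1 (1.22 ± 0.09, adjusted p = 4.95e-07) and FUR1 (1.06 ± 0.10, adjusted p = 2.25e-06). FUR1 averaged 549.9 ± 48.3 CPM in [PRT1] and 264.6 ± 16.5 CPM in wt, whereas FUR4, for import of the same base, averaged 38.2 ± 2.23 CPM in [PRT1] and 34.8 ± 6.65 CPM in wt (SD, n = 3 each).

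In [RBS1], 0 of the 26 were higher and 11 lower (42.3%) than in rpc128-1007, where 12.5% and 17% of tested genes were, with a median of -0.12 against -0.01 over all tested genes, and SDT1 (-1.32 ± 0.21, adjusted p = 0.00044) and CPA1 (-1.18 ± 0.10, adjusted p = 2.24e-06) were the lowest. Against wt, 1 was higher (3.85%) and 2 were lower (7.69%), shares near the 6.53% and 4.34% of tested genes (median 0.06). These were FCY2, the purine-cytosine permease gene (0.28 ± 0.08, adjusted p = 0.0409), RNR3, a ribonucleotide reductase gene (-0.49 ± 0.14, adjusted p = 0.0372), and FCY21 (-0.30 ± 0.07, adjusted p = 0.0207). The FCY2 call was lost in 13 of 23 alternatives (adjusted p up to 0.166), that of RNR3 in 9 (up to 0.117) and that of FCY21 in 5 (up to 0.083).

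In [RBS1-R3H], 7 were higher (26.9%) and 1 lower (3.85%) than in wt, where 13.3% and 9.43% of tested genes were (median 0.14, against -0.02 over all tested genes), from SDT1 (2.39 ± 0.21, adjusted p = 2.21e-06) and CPA1 (2.02 ± 0.11, adjusted p = 1.55e-08) to FCY21 (-0.42 ± 0.07, adjusted p = 0.000686). Against rpc128-1007, 4 were higher (15.4%) and 3 lower (11.5%) in that strain, where 4.49% and 6.72% of tested genes were, led by SDT1 (0.75 ± 0.20, adjusted p = 0.0291) and CPA1 (0.71 ± 0.10, adjusted p = 0.000758). Of the 23 alternatives, 6 did not call SDT1 here. The lowest there were YNK1, the nucleoside diphosphate kinase gene (-0.77 ± 0.17, adjusted p = 0.00837), and PRS1, a gene for synthesis of the phosphoribosyl donor (-0.52 ± 0.11, adjusted p = 0.00571). The active allele had 0 of the 26 higher and 8 lower (30.8%) than the inactive one, where 13.3% and 14.4% of tested genes were, with SDT1 (-2.07 ± 0.21, adjusted p = 8.26e-06) and CPA1 (-1.89 ± 0.11, adjusted p = 3.41e-08) the lowest.

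**Figure D5:**
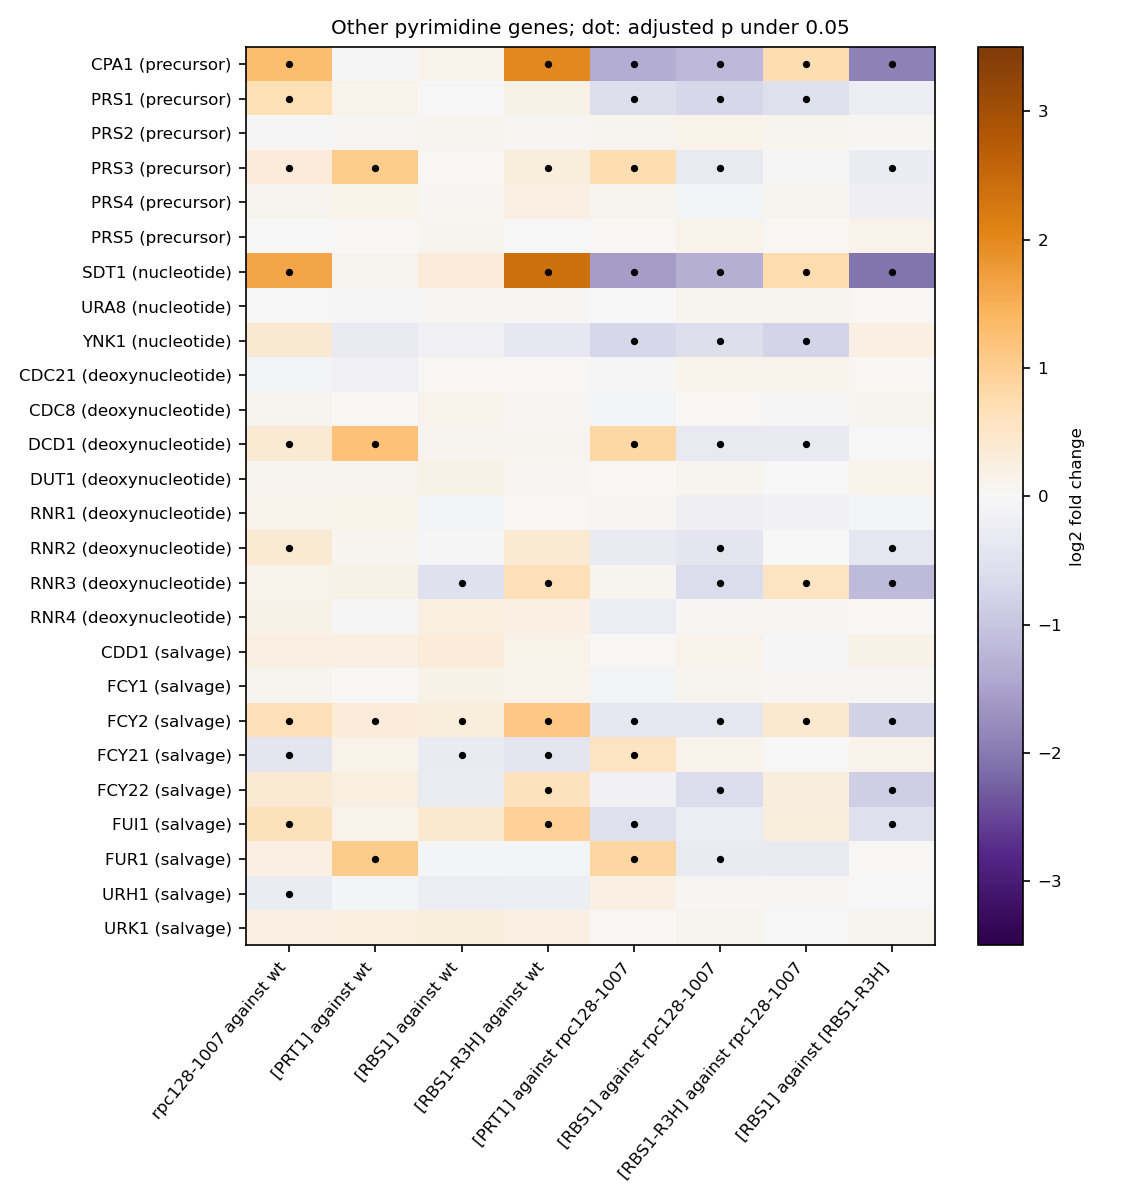
Log2 fold changes (colour scale) of the 26 other genes of pyrimidine metabolism and of its precursors (rows, with their class) in the 8 comparisons (columns). Dots mark an adjusted p under 0.05. SDT1 and CPA1 carry the deepest colours, up to 2.39 for SDT1 in [RBS1-R3H] against wt.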

How the data were processed

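Per the labels and the study's methods, poly(A) RNA was primed with random hexamers and sequenced in read pairs, aligned with TopHat2 2.0.11 to the EF4 assembly and counted per gene. The authors deposited 1 table of raw counts for 6600 genes, which they had analysed with DESeq2 1.24.0. Counting mode and strand setting are not given in the sources used here. The cause of the trends with gene length was not tested. The labels call the libraries biological replicates.

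The counts were fitted with edgeR 4.0.16 in R 4.3.3 (TMM scaling, quasi-likelihood test, robust fit, all 15 libraries), for 5851 genes with enough counts by a minimum of 10 in 3 libraries and 15 in all. Each of 8 comparisons was adjusted by Benjamini-Hochberg over these genes. The 749 genes under the filter were not tested. An exact permutation test of 3 against 3 libraries cannot go below 0.1, so it was not used. Scripts were tested on simulated counts. No 2 libraries of a strain agreed within sampling noise. The mean chi-square per gene between 2 libraries was 33.7 to 64.6 in rpc128-1007 and 9.08 to 13.7 in wt. In the other strains it lay between 9.81 and 35.3. The fit used 1 estimate of spread per gene for all strains.

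The 10 members, the list of 26 other genes and the motifs were chosen with earlier results of these data known. All members were named in every comparison, and of the 26 at most the 2 highest and 2 lowest called, with the 3 genes nearest to each member whose strain means spanned over 1 on the log2 scale. Plasmid genes, LEU2 and the neighbours of URA3 served as checks. 1 gene these rules would name is not reported here.

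Same-numbered libraries deviated together (every correlation over 0.1) in rpc128-1007 against wt, [PRT1] against wt, [RBS1] against rpc128-1007 and [RBS1] against [RBS1-R3H]. Correlations between libraries of different numbers were not computed, and the deviations include the length trend. Whether the replicate number pairs libraries was thus not tested, and the labels do not say so. Motifs, lengths and neighbours come from RefSeq R64, to which 5917 identifiers matched. Coordinates are not printed because the builds differ. Alternatives were library totals, DESeq2 1.42.0, limma-voom (limma 3.58.1), no filter, only the compared strains, the replicate block, removal of a length trend, the libraries with the most positive such trend (replicate 2 of rpc128-1007 and of [RBS1]) left out and each library left out.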

Additional observations from a re-analysis of the deposited data

How the results depend on the processing

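Of the 80 changes of members, 30 were called as reported, 10 only under an alternative and 40 never. None of the called ones changed sign in 23 alternatives. The number of members called in [RBS1-R3H] against rpc128-1007 was 3 as reported, 5 with the replicate block and 5 with the length trend removed; the cause was not tested. Leaving out 1 library at a time, the number of members called ranged from 5 to 7 in rpc128-1007 against wt, 2 to 3 in [RBS1] against wt, 4 to 5 in [RBS1-R3H] against wt, 5 to 6 in [PRT1] against rpc128-1007, 3 to 5 in [RBS1] against rpc128-1007, 3 to 4 in [RBS1-R3H] against rpc128-1007 and 2 to 3 between both RBS1 alleles, and was 1 throughout in [PRT1] against wt.

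With the replicate block, URA7 and PPR1 in rpc128-1007 against wt gained calls as given in the report. In the other comparisons where same-numbered libraries deviated together, no member call changed. In the remaining comparisons the block added calls for URA7 in [RBS1] against wt (0.28, adjusted p = 0.02) and for URA7 (0.27, adjusted p = 0.0135) and PPR1 (0.30, adjusted p = 0.0245) in [RBS1-R3H] against wt. It also added calls for URA2 (0.33, adjusted p = 0.00844) and FUR4 (0.38, adjusted p = 0.0133) in [RBS1-R3H] against rpc128-1007. With only the compared strains in the fit, URA1 in rpc128-1007 against wt (adjusted p = 0.0929) and URA2 in [RBS1] against rpc128-1007 (adjusted p = 0.0734) lost their calls. With library totals URA4 was called higher in [RBS1] than in rpc128-1007, and URA5 was called there and in rpc128-1007 against wt with library totals and with DESeq2, as given in the report.

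Counts over all genes moved by more than 1.5 times in some fits. The block gave 1216 calls against 678 as reported in [PRT1] against wt, 1162 against 636 in [RBS1] against wt and 1045 against 656 in [RBS1-R3H] against rpc128-1007. Only the compared strains gave 666 against 1084 in rpc128-1007 against wt, 1034 against 1730 in [RBS1] against rpc128-1007 and 254 against 656 in [RBS1-R3H] against rpc128-1007. With 1 library left out, the lowest counts were 416 in [PRT1] against wt (without [PRT1] replicate 1), 276 in [RBS1] against wt (without wt replicate 2) and 325 in [RBS1-R3H] against rpc128-1007 (without [RBS1-R3H] replicate 2). Library totals shifted the median change of all genes by -0.11 in [RBS1-R3H] against wt and by 0.13 between both RBS1 alleles, and changed the split of higher and lower calls over all genes to 594 and 595 in rpc128-1007 against wt, 581 and 1126 in [RBS1-R3H] against wt, 1127 and 714 in [RBS1] against rpc128-1007 and 1455 and 569 between both RBS1 alleles.

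Among the named genes of the wider list, calls lost in some of the 23 alternatives were those of FCY2 (13), RNR3 (9) and FCY21 (5) in [RBS1] against wt, of URH1 (7) in rpc128-1007 against wt and of SDT1 (6), YNK1 (2) and PRS1 (1) in [RBS1-R3H] against rpc128-1007. Gene lengths of the annotation equalled coding lengths for the members, so another length gave no value. Depth limits URA10 most, at 44 to 105 counts in [PRT1] and wt.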
